A study of Danio rerio with 4 samples.

Results

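The splicing machinery of zebrafish embryos was followed through 86 protein-coding genes of the 26812 genes in the deposited table. They were chosen by name alone: 87 genes carried a name that begins with sf3a, sf3b, srsf, snrp, prpf, lsm and a number, u2af or hnrnp, and 1 of them was not protein-coding and was left out. The rule used no measured value. It leaves out splicing factors named otherwise, such as snrnp70 and the spliceosomal helicases, which are given below as separate lists.

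The spliceosome removes introns from pre-mRNA. Its small nuclear ribonucleoproteins (snRNPs) are built on rings of Sm proteins, or of LSm proteins in the case of the U6 snRNP. The U1 snRNP marks the start of the intron, U2AF and the SF3a and SF3b complexes of the U2 snRNP define its end and branch site, and the PRPF proteins accompany the tri-snRNP and the catalytic steps. SR proteins and hnRNPs bind pre-mRNA outside this core, often with opposing effects on the choice of exons, and neural tissue is known for its rich alternative splicing.

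The study knocked out Kdm5a, a demethylase of histone H3 lysine 4, with CRISPR/Cas9 and asked how gene expression differs between mutant and wild-type embryos. mRNA libraries came from whole KDM5A-KO and WT embryos at 24 and 48 hours post fertilisation (hpf), kept at 28 °C, with 1 library in each of the 4 groups: KDM5A-KO at 24 hpf, WT at 24 hpf, KDM5A-KO at 48 hpf and WT at 48 hpf. The sample labels describe embryos from separate matings of KO and WT fish, whereas the study's methods describe pooled embryos after injection of guide RNA and Cas9, which may be mosaic. The titles of the KDM5A-KO samples carry the letters "mo", which the labels do not explain. The paper calls its injected embryos morphants and speaks of both knockdown and knockout. Its RNA-seq methods describe pools at 24 hpf only. The origin of the KDM5A-KO embryos was therefore not settled here. No strain name is given in the sources used here. The targeted gene did not mark the mutant libraries by its mRNA. KDM5A (ENSDARG00000104567) stood at 20.3 FPKM in the 24 hpf library labelled KDM5A-KO, against 13.8 FPKM in its WT counterpart, and at 16.3 FPKM in the 48 hpf library labelled KDM5A-KO, against 18.1 FPKM in WT. A gene edited by CRISPR/Cas9 can keep its mRNA, so these levels do not check the labels, and every direction below is that of libraries by label.

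Without replicates no difference could be tested. Values are FPKM (fragments scaled by gene length and library depth), and reads recovered from them gave an exact Clopper-Pearson 95% interval for the FPKM ratio of a gene, called the counting interval. It covers counting error only, not the spread between embryos or libraries. Medians over groups of genes are of log2 ratios of FPKM + 1, whereas the values given with an interval are log2 ratios of FPKM with nothing added. The 4 libraries held 7441797 to 15922314 reads on genes, the fewest in WT at 24 hpf. In that library 12.1% of reads fell on 232 genes annotated as ribosomal RNA or lying within 15 kb of certain ribosomal RNA genes. The other 3 libraries held 0.290% to 0.432% on them. These 232 are called the ribosomal RNA genes below. Over all 17416 genes with a mean of at least 1 FPKM the median log2 ratio of KDM5A-KO over WT was 0.20 at 24 hpf and -0.03 at 48 hpf. Rescaling by the median of ratios shifted the log2 ratios by -0.27 at 24 hpf and -0.01 at 48 hpf, so directions at 24 hpf are read against the median of all genes. In RNA from whole embryos, fewer cells of a type and less RNA per cell cannot be told apart.

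The splicing genes were among the most highly expressed in the embryo. Their mean over the 4 libraries had a median of 54.8 FPKM, against 3.39 FPKM over all 24058 protein-coding genes, and 63 of the 86 (73.3%) stood in the top decile. The 84 genes with a mean of at least 1 FPKM are described below. The other 2, lsm14b and srsf3a, had between 4 and 19 reads in each library. No splicing gene was listed at 0, and 77 of 86 had at least 100 reads in every library. The share of all reads that fell on the 86 genes was 1.75% in KDM5A-KO and 1.57% in WT at 24 hpf, and 1.26% in KDM5A-KO and 1.37% in WT at 48 hpf. With the ribosomal RNA genes left out of the totals, the share at 24 hpf was 1.76% in KDM5A-KO and 1.79% in WT, so the order of the genotypes at that time turned with the denominator.

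The most abundant member was an hnRNP A0-like gene, hnrnpa0l (ENSDARG00000036161), with 959 FPKM in KDM5A-KO and 878 FPKM in WT at 24 hpf, and 567 FPKM in KDM5A-KO and 673 FPKM in WT at 48 hpf. A second gene of the same name (ENSDARG00000076380) lay between 4.97 and 6.43 FPKM. The hnRNP genes hnrnpabb, hnrnpaba and hnrnpa1a followed, with means of 393, 382 and 321 FPKM. The sum over the 21 hnRNP genes was 3389 FPKM in KDM5A-KO and 3145 FPKM in WT at 24 hpf, and 2411 FPKM in KDM5A-KO and 2887 FPKM in WT at 48 hpf. For the 8 Sm genes the sum was 1299 FPKM in KDM5A-KO and 1168 FPKM in WT at 24 hpf, and 801 FPKM in KDM5A-KO and 695 FPKM in WT at 48 hpf. At 48 hpf the summed level was thus lower in KDM5A-KO for the hnRNPs and higher for the Sm genes.

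At 24 hpf the median of the splicing genes stood near that of all genes. Of the 84 genes, 78 had a ratio above 0 in KDM5A-KO against WT, beside 12361 of all 17416 genes. The median log2 ratio of the members was 0.23, beside 0.20 for all genes. After rescaling the median was -0.03, against -0.02 for all genes, with 31 members above 0 and 53 below. Of all genes, 8343 were above 0 and 9033 below after rescaling. No member was 2-fold higher or lower, where 3.63% of all genes passed 2-fold upwards and 1.33% downwards. At 1.5-fold, 1 member was higher and 0 were lower, where 15.6% of all genes were higher and 3.77% lower. The 1 member was lsm5, a subunit of the U6 LSm ring, with 5.02 FPKM in KDM5A-KO and 2.85 FPKM in WT, the WT value from 29 reads.

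At 48 hpf the median over the 84 genes was -0.01, against -0.03 for all genes, but the role groups lay on both sides of 0. At 2-fold, 0 members were higher and 1 was lower in KDM5A-KO, beside 3.65% of all genes higher by that much and 4.65% lower. At 1.5-fold, 3 were higher and 5 lower, beside 10.7% of all genes higher and 14% lower. At any size, 41 members had a ratio above 0 and 43 below, beside 8280 and 9113 of all 17416 genes. By the counting interval 33 of 84 members were higher and 34 lower, beside 28.6% of all genes higher and 33% lower. These values over all genes are the background for the counts in the role groups below. Genes of higher level have narrower counting intervals. Nothing particular to the splicing genes or to a role group is therefore read from the counts by interval, here or below.

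**Figure D1:**
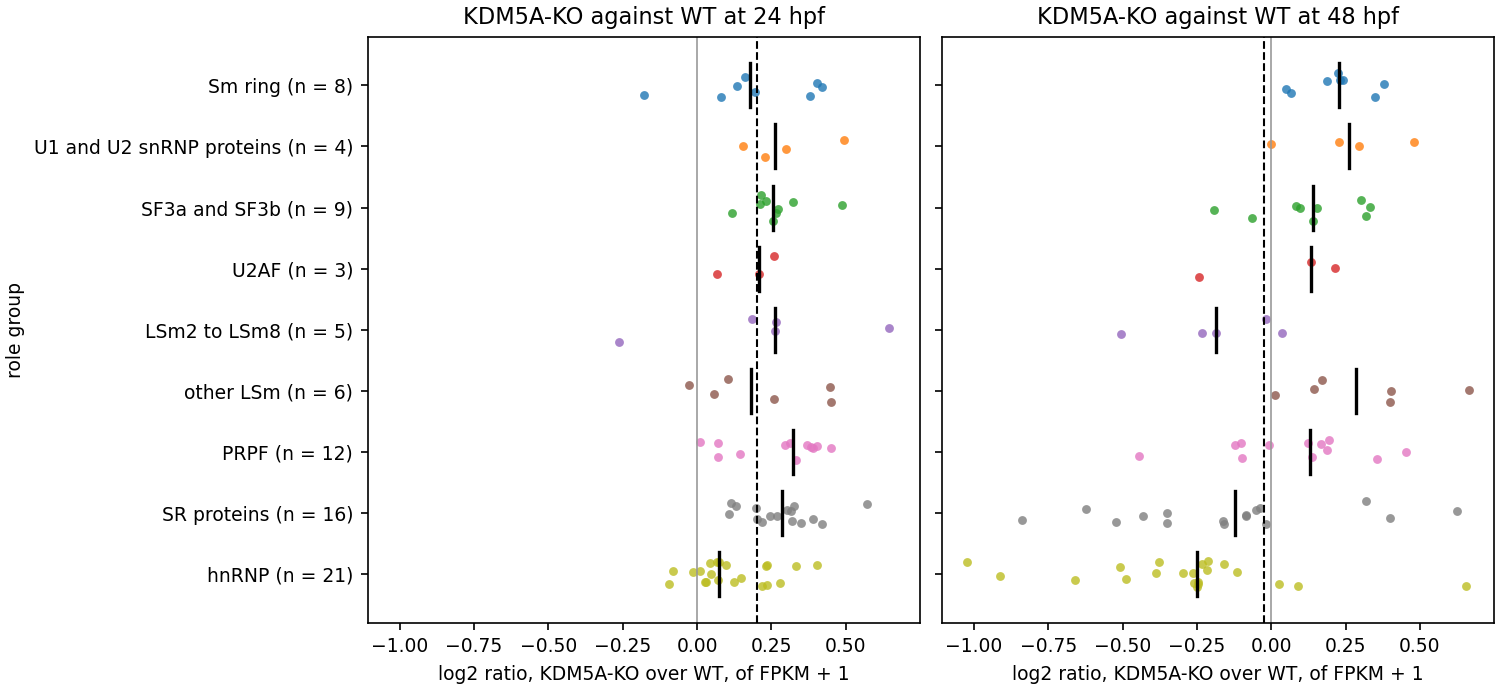
Log2 ratio of KDM5A-KO over WT (FPKM + 1) for the 84 splicing genes, one point per gene, by role group at 24 hpf (left) and 48 hpf (right). Black bars are group medians and the dashed line is the median of all genes, 0.20 at 24 hpf and -0.03 at 48 hpf. At 48 hpf the Sm, U1 and U2, SF3 and other LSm medians lie between 0.14 and 0.29 and the SR and hnRNP medians at -0.12 and -0.25.

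The genes of the Sm ring, the shared core of the U1, U2, U4 and U5 snRNPs, stood higher in KDM5A-KO at 48 hpf. All 8 had a ratio above 0, with a median log2 ratio of 0.23 and a range of 0.05 to 0.38. By the counting interval 6 of 8 lay above 0, beside 28.6% of all genes. At 24 hpf their median was 0.18, and 3 of 8 lay above the median of all genes. The most abundant, snrpb (ENSDARG00000011125), which encodes SmB, had 403 FPKM in KDM5A-KO and 382 FPKM in WT at 24 hpf, and 241 FPKM in KDM5A-KO and 206 FPKM in WT at 48 hpf. Its log2 FPKM ratio at 48 hpf was 0.23 (0.16 to 0.30). The gene of SmD3, snrpd3, had 36.0 FPKM in KDM5A-KO and 27.4 FPKM in WT at 48 hpf, a log2 FPKM ratio of 0.39 (0.17 to 0.62). By contrast snrpg (ENSDARG00000099667), the gene of SmG, had 129 FPKM in KDM5A-KO and 146 FPKM in WT at 24 hpf, and 72.2 FPKM in KDM5A-KO and 69.8 FPKM in WT at 48 hpf, so at 48 hpf it differed by less than counting error. Only snrpg among the Sm genes was lower in KDM5A-KO at 24 hpf as deposited, at -0.18 (-0.32 to -0.04), and after rescaling 5 of the 8 were below 0 there.

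Of the 4 members specific to the U1 and U2 snRNPs, 3 were higher in KDM5A-KO at 48 hpf by the counting interval. Of all genes, 28.6% were higher by that interval. The median of the 4 was 0.26. The U2 gene snrpb2 (ENSDARG00000039424) had 48.7 FPKM in KDM5A-KO and 39.4 FPKM in WT at 24 hpf, and 28.6 FPKM in KDM5A-KO and 20.2 FPKM in WT at 48 hpf, where its log2 FPKM ratio was 0.50 (0.31 to 0.69). The U1 gene snrpc (ENSDARG00000009871), whose protein steadies the pairing of U1 with the intron start, had 98.1 FPKM in KDM5A-KO and 88.1 FPKM in WT at 24 hpf, and 70.0 FPKM in KDM5A-KO and 56.8 FPKM in WT at 48 hpf. The exception was snrpa (ENSDARG00000018890), which encodes a protein that binds the U1 RNA itself. It had 75.5 FPKM in KDM5A-KO and 53.3 FPKM in WT at 24 hpf, and 45.7 FPKM in both genotypes at 48 hpf. Its log2 FPKM ratio was 0.50 (0.37 to 0.63) at 24 hpf and 0.00 (-0.12 to 0.12) at 48 hpf. After rescaling, the log2 ratio of FPKM + 1 for snrpa at 24 hpf was 0.23. A further U1 protein gene, snrnp70, which the name rule leaves out, was lower in KDM5A-KO at 48 hpf. It had 81.5 FPKM in KDM5A-KO and 92.5 FPKM in WT there, a log2 FPKM ratio of -0.18 (-0.25 to -0.12).

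Among the 9 SF3a and SF3b genes 7 had a ratio above 0 at 48 hpf, and the median was 0.14. By the counting interval 5 were higher, beside 28.6% of all genes. The SF3a subunit sf3a2 (ENSDARG00000021107) had 88.3 FPKM in KDM5A-KO and 62.8 FPKM in WT at 24 hpf, and 59.2 FPKM in KDM5A-KO and 47.3 FPKM in WT at 48 hpf. Its log2 FPKM ratio was 0.49 (0.38 to 0.61) at 24 hpf and 0.32 (0.22 to 0.43) at 48 hpf. After rescaling, the log2 ratio of FPKM + 1 for sf3a2 at 24 hpf was 0.22. The large subunit sf3b1 (ENSDARG00000056138), which holds the branch site and is the most often mutated splicing gene in human myelodysplasia, went the other way at 48 hpf. It had 79.2 FPKM in KDM5A-KO and 68.1 FPKM in WT at 24 hpf, and 81.7 FPKM in KDM5A-KO and 85.4 FPKM in WT at 48 hpf, with a log2 FPKM ratio of -0.07 (-0.12 to -0.02) at 48 hpf. The small subunit sf3b5 was also lower at 48 hpf, with 56.6 FPKM in KDM5A-KO and 64.8 FPKM in WT.

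The U2AF dimer reads the end of the intron. Its small subunit u2af1 (ENSDARG00000015325), which contacts the terminal AG, had 165 FPKM in KDM5A-KO and 138 FPKM in WT at 24 hpf, and 122 FPKM in KDM5A-KO and 105 FPKM in WT at 48 hpf. After rescaling, the log2 ratio of FPKM + 1 for u2af1 at 24 hpf was -0.01. The large subunit has duplicated genes. At 48 hpf u2af2b was higher in KDM5A-KO, with 50.9 FPKM against 46.3 FPKM in WT, and u2af2a lower, with 33.1 FPKM against 39.4 FPKM in WT, both beyond counting error.

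The LSm2 to LSm8 proteins form the nuclear ring of the U6 snRNP, and most of them also serve in the cytoplasmic decay ring. Of the 5 genes measured, 4 had a ratio below 0 at 48 hpf (median -0.18), beside 9113 of all 17416 genes. By the counting interval 2 of the 5 were lower, beside 33% of all genes. Nothing particular to this group is read from these counts. The ring member lsm8 (ENSDARG00000091656), which sets the nuclear ring apart from the cytoplasmic one, had 45.3 FPKM in KDM5A-KO and 54.6 FPKM in WT at 24 hpf, and 23.2 FPKM in KDM5A-KO and 33.3 FPKM in WT at 48 hpf. It was lower in KDM5A-KO at both times, with a log2 FPKM ratio of -0.27 (-0.50 to -0.04) at 24 hpf and -0.52 (-0.77 to -0.28) at 48 hpf. The most abundant of the 5, lsm7 (ENSDARG00000058328), had 87.7 FPKM in KDM5A-KO and 72.8 FPKM in WT at 24 hpf, and 52.6 FPKM in KDM5A-KO and 59.9 FPKM in WT at 48 hpf.

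The other LSm genes belong to no single complex and act mostly outside splicing, in mRNA decay, in translational control or in the U7 snRNP that processes histone mRNA. All 6 measured had a ratio above 0 at 48 hpf, with a median of 0.29. By the counting interval 5 of 6 were higher, beside 28.6% of all genes. An LSm domain gene, lsm12b (ENSDARG00000045940), had 104 FPKM in KDM5A-KO and 76.0 FPKM in WT at 24 hpf, and 112 FPKM in KDM5A-KO and 70.6 FPKM in WT at 48 hpf. Its log2 FPKM ratio of 0.67 (0.57 to 0.77) at 48 hpf was the highest among the 45 members with a mean of at least 50 FPKM. The decay-ring gene lsm1 (ENSDARG00000043177), which replaces lsm8 in the cytoplasm, did not differ beyond counting error at either time, with 7.02 FPKM in KDM5A-KO and 7.16 FPKM in WT at 24 hpf, and 9.98 FPKM in KDM5A-KO and 9.88 FPKM in WT at 48 hpf.

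For the 12 PRPF genes the median was 0.32 at 24 hpf (0.06 rescaled), beside 0.20 for all genes (-0.02 rescaled). At 48 hpf it was 0.13 (0.12 rescaled), so the order of the 2 times turned with the scaling. By the counting interval 7 were higher and 1 lower at 48 hpf, beside 28.6% and 33% of all genes. The highest in level was prpf39 (ENSDARG00000100209), a U1-associated protein in yeast and mammals, with 98.4 FPKM in KDM5A-KO and 79.1 FPKM in WT at 24 hpf, and 64.6 FPKM in KDM5A-KO and 59.2 FPKM in WT at 48 hpf. At the catalytic centre prpf8 had 63.9 FPKM in KDM5A-KO and 63.5 FPKM in WT at 24 hpf, and 46.7 FPKM in KDM5A-KO and 42.4 FPKM in WT at 48 hpf. The 1 that was lower was prpf4ba (ENSDARG00000008784), a copy of the gene of a kinase that in human cells acts on tri-snRNP proteins. It had 11.3 FPKM in KDM5A-KO and 10.7 FPKM in WT at 24 hpf, and 12.0 FPKM in KDM5A-KO and 16.7 FPKM in WT at 48 hpf, a log2 FPKM ratio of -0.48 (-0.63 to -0.32).

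**Figure D2:**
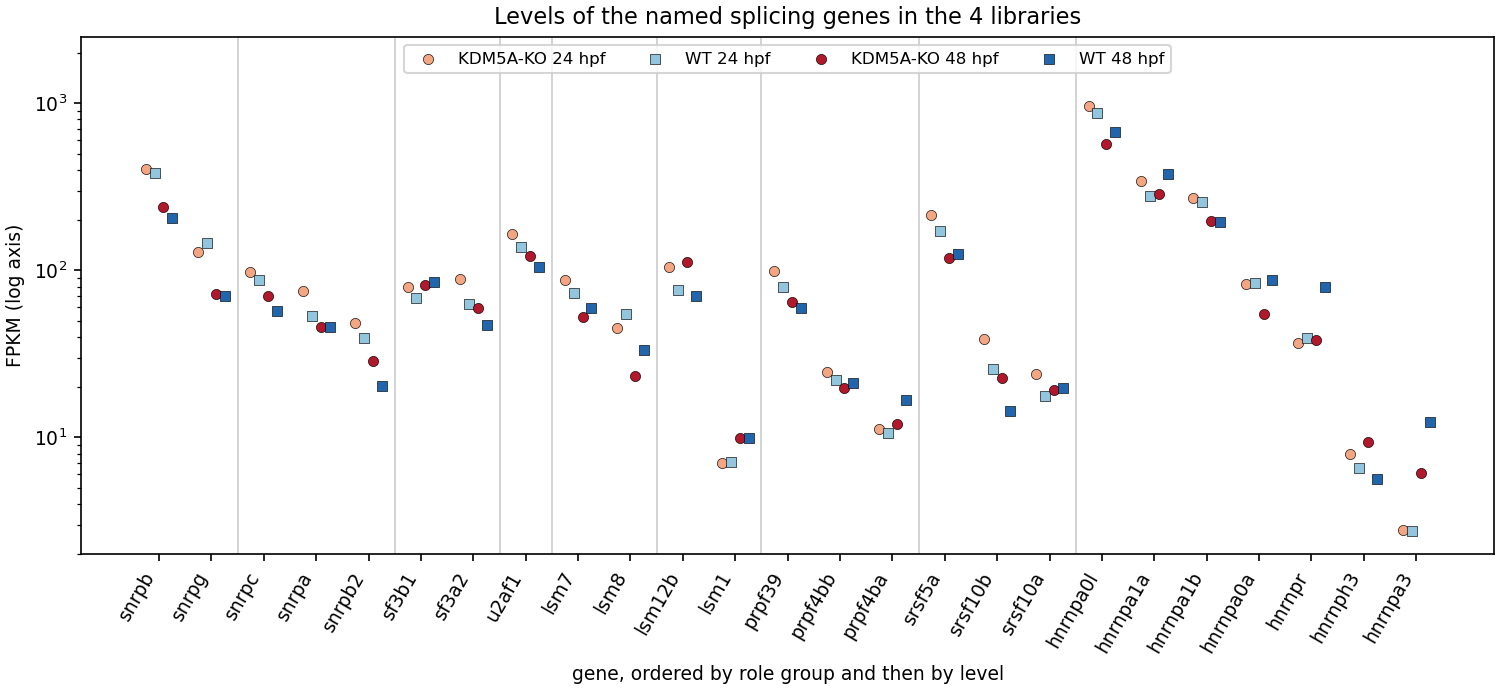
FPKM (log axis) of the 25 named splicing genes in the 4 libraries, KDM5A-KO as circles and WT as squares, ordered by role group (grey lines) and level. hnrnpr stands apart with 79.0 FPKM in WT at 48 hpf and 36.6 to 39.1 FPKM in the other 3 libraries, and hnrnpa3 with 12.4 FPKM there.

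The SR proteins, which mostly promote the use of exons, stood lower in KDM5A-KO at 48 hpf. Of the 16 genes with a mean of at least 1 FPKM, 13 had a ratio below 0, and the median was -0.12. By the counting interval 10 were lower, beside 33% of all genes. At 24 hpf the same 16 genes were all above 0 as deposited, with a median of 0.29, and 9 of 16 were above 0 after rescaling. The most abundant, srsf5a (ENSDARG00000029818), had 215 FPKM in KDM5A-KO and 173 FPKM in WT at 24 hpf, and 119 FPKM in KDM5A-KO and 126 FPKM in WT at 48 hpf. Its log2 FPKM ratio at 48 hpf was small, -0.09 (-0.14 to -0.03). The duplicate srsf5b differed more, with 65.8 FPKM in KDM5A-KO and 55.3 FPKM in WT at 24 hpf, and 38.3 FPKM in KDM5A-KO and 59.5 FPKM in WT at 48 hpf, a log2 FPKM ratio of -0.64 (-0.70 to -0.57). The small SR gene srsf3b had 109 FPKM in KDM5A-KO and 101 FPKM in WT at 24 hpf, and 65.3 FPKM in KDM5A-KO and 94.1 FPKM in WT at 48 hpf. In srsf5b and srsf3b the KDM5A-KO library at 48 hpf was the lowest of the 4, and the other 3 lay closer to each other than to it.

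The 3 SR genes above 0 at 48 hpf were srsf10b, srsf6a and srsf7a, all beyond counting error. srsf10b (ENSDARG00000086411), a copy of the gene of a splicing repressor in mammals, had 38.8 FPKM in KDM5A-KO and 25.8 FPKM in WT at 24 hpf, and 22.6 FPKM in KDM5A-KO and 14.3 FPKM in WT at 48 hpf. It was the SR gene with the highest ratio at both times, 0.59 (0.37 to 0.81) at 24 hpf and 0.66 (0.44 to 0.88) at 48 hpf on the log2 FPKM scale. After rescaling, the log2 ratio of FPKM + 1 for srsf10b at 24 hpf was 0.31. srsf6a had 124 FPKM in KDM5A-KO and 93.4 FPKM in WT at 48 hpf, and srsf7a 85.3 FPKM in KDM5A-KO and 68.2 FPKM in WT.

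The hnRNP genes showed the lowest median of the role groups at 48 hpf, -0.25. Of 21 genes, 18 were below 0, and 18 were lower by the counting interval, beside 33% of all genes. At 24 hpf their median of 0.07 was under the 0.20 of all genes, 7 of 21 lay above it, and after rescaling 18 of 21 were below 0. The member that was past 2-fold was hnrnpr (ENSDARG00000014569), whose protein travels with mRNA into axons of mouse motor neurons. It had 36.6 FPKM in KDM5A-KO and 39.1 FPKM in WT at 24 hpf, and 38.3 FPKM in KDM5A-KO and 79.0 FPKM in WT at 48 hpf. Only the WT library at 48 hpf was high, and the log2 FPKM ratio at that time was -1.04 (-1.12 to -0.96). At a lower level hnrnpa3 (ENSDARG00000059351), an hnRNP A/B relative, had 2.78 FPKM in KDM5A-KO and 2.75 FPKM in WT at 24 hpf, and 6.14 FPKM in KDM5A-KO and 12.4 FPKM in WT at 48 hpf. Both 48 hpf libraries were above both 24 hpf libraries, and WT was the highest. These values came from 70, 35, 167 and 330 reads, and the log2 FPKM ratio at 48 hpf was -1.02 (-1.30 to -0.75).

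A further hnRNP A0 gene, hnrnpa0a (ENSDARG00000089302), whose mammalian relative binds AU-rich mRNA, had 83.0 FPKM in KDM5A-KO and 83.8 FPKM in WT at 24 hpf, and 54.6 FPKM in KDM5A-KO and 86.9 FPKM in WT at 48 hpf. The KDM5A-KO library at 48 hpf was the low one, with a log2 FPKM ratio of -0.67 (-0.75 to -0.59). hnrnpm had 148 FPKM in KDM5A-KO and 112 FPKM in WT at 24 hpf, and 99.5 FPKM in KDM5A-KO and 142 FPKM in WT at 48 hpf, so the genotypes stood in opposite order at 24 and 48 hpf, also after rescaling. hnrnpa1a (ENSDARG00000011020), a copy of the gene of the best known exon-silencing hnRNP, had 340.2 FPKM in KDM5A-KO and 280.2 FPKM in WT at 24 hpf, and 288 FPKM in KDM5A-KO and 375 FPKM in WT at 48 hpf.

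The 3 hnRNP genes above 0 at 48 hpf were hnrnph3, hnrnpul1 and hnrnpa1b. hnrnph3 (ENSDARG00000039466), of the family that binds G-rich RNA, had 7.93 FPKM in KDM5A-KO and 6.58 FPKM in WT at 24 hpf, and 9.41 FPKM in KDM5A-KO and 5.61 FPKM in WT at 48 hpf. Its log2 FPKM ratio of 0.75 (0.45 to 1.04) at 48 hpf rests on 263 and 153 reads. hnrnpa1b (ENSDARG00000036675) had 199 FPKM in KDM5A-KO and 195 FPKM in WT at 48 hpf, within counting error.

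Joined after these values were seen, the Sm, U1 and U2 and SF3 genes had 19 of 21 ratios above 0 at 48 hpf (median 0.23), and the SR and hnRNP genes 31 of 37 below 0 (median -0.25). At 24 hpf the medians of the same sets were 0.23 and 0.20, and -0.03 and -0.05 after rescaling. Left out of both sets were LSm2 to LSm8 (median at 48 hpf -0.18, 4 of 5 below 0), U2AF (0.13), PRPF (0.13) and the other LSm genes (0.29). As the groups were joined with their values known, the joined counts add no support to the group medians. Of the 86 genes, 32 carried the Pfam domain RRM_1, an RNA-binding fold shared by the SR proteins and most hnRNPs. Their median at 48 hpf was -0.21. As these genes overlap the SR and hnRNP genes, that median adds no separate support. The other 109 genes with this domain and at least 1 FPKM had a median of -0.12. Their overlap with the lists given below was not counted. For the domain RRM_6, carried by 6 members, the members' median was -0.11 and that of 14 other genes -0.03.

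Most splicing genes were lower at 48 than at 24 hpf in both genotypes. Over all genes the median log2 ratio of 48 over 24 hpf was -0.11 in KDM5A-KO and 0.13 in WT, and over the splicing genes it was -0.44 in KDM5A-KO and -0.28 in WT. After rescaling the splicing genes had -0.29 in KDM5A-KO and -0.38 in WT, beside 0.02 in KDM5A-KO and 0.05 in WT over all genes, so the genotype with the lower median depends on the scaling. Of the 84 genes, 74 in KDM5A-KO and 57 in WT were lower at 48 hpf. In KDM5A-KO 0 members were 2-fold higher and 0 were 2-fold lower at 48 hpf, where 9.2% of all genes were higher and 4.85% lower. In WT 2 members were 2-fold higher, hnrnpa3 and srsf7b, and 1 was 2-fold lower, snrpg, where 16.6% of all genes were higher and 5.84% lower.

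The Sm genes were lower at 48 hpf in 8 of 8 cases in both genotypes, with a median of -0.67 in KDM5A-KO and -0.65 in WT. The U1 and U2 genes had -0.60 in KDM5A-KO and -0.53 in WT, and SF3 -0.46 in KDM5A-KO and -0.40 in WT. For the SR genes the median was -0.45 in KDM5A-KO and -0.02 in WT, and the hnRNP median -0.29 in KDM5A-KO and 0.05 in WT. After rescaling the Sm median was -0.51 in KDM5A-KO and -0.75 in WT, the SR median -0.30 in KDM5A-KO and -0.12 in WT, and the hnRNP median -0.14 in KDM5A-KO and -0.05 in WT, so which groups had like medians in both genotypes turned with the scaling. Of 21 hnRNP genes 17 were lower at 48 hpf in KDM5A-KO and 9 in WT, and 14 in KDM5A-KO and 11 in WT after rescaling. Of all 17416 genes, 10023 in KDM5A-KO and 7302 in WT were lower as deposited. The change in KDM5A-KO minus that in WT had a median of 0.01 over the Sm genes, -0.45 over the SR genes and -0.37 over the hnRNPs, beside -0.24 over all genes. Since the 4 libraries enter every such difference, these values describe the same pattern as the comparison of genotypes and add no separate support.

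**Figure D3:**
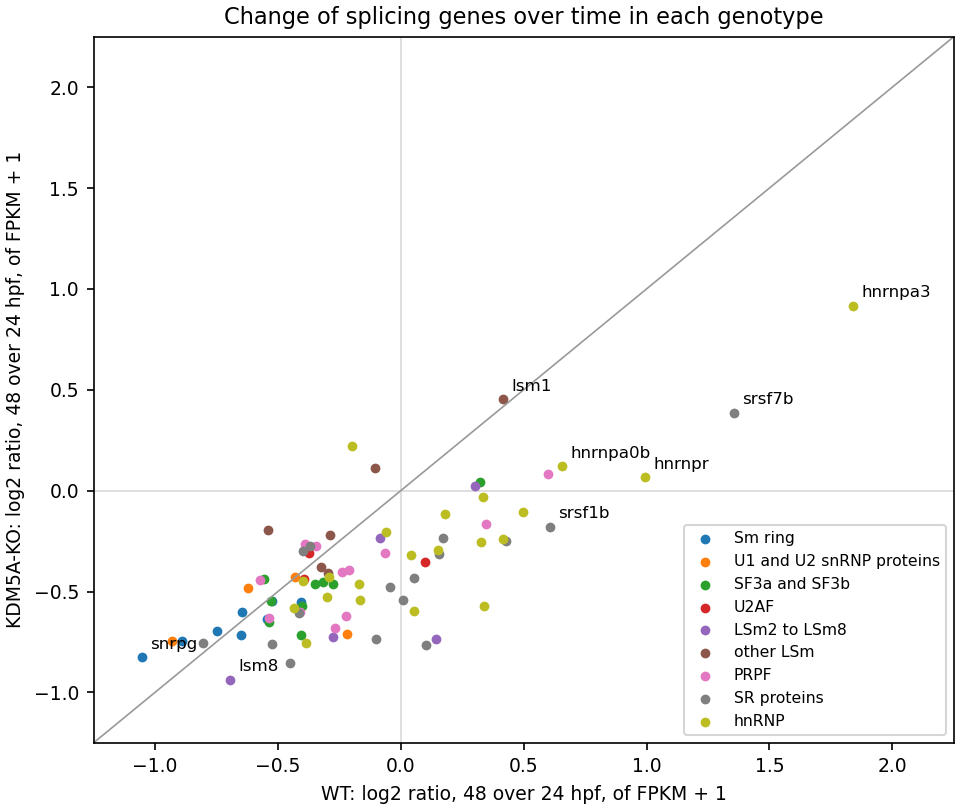
Log2 ratio of 48 over 24 hpf (FPKM + 1) of each of the 84 splicing genes in WT (horizontal) and KDM5A-KO (vertical), coloured by role group, with the line of equal change in grey. Sm genes lie at the lower left near the line, and hnrnpr, hnrnpa3, srsf7b and srsf1b lie well below it. Over all genes the median change in KDM5A-KO minus that in WT was -0.24, so the line is not the background. After rescaling the Sm medians were -0.51 in KDM5A-KO and -0.75 in WT.

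Zebrafish kept duplicates of many splicing genes, and the balance of the copies can be read within a library, free of its scaling. In 15 pairs of genes that share a name but for a final a or b, the share of the a copy in the summed FPKM was computed, and in 12 pairs both copies averaged at least 5 FPKM. Near-identical copies can exchange reads when they are counted, so the absolute shares are uncertain. The pair that differed most was srsf10. The a copy (srsf10a, ENSDARG00000022415) held 38.2% (35.9 to 40.6) in KDM5A-KO and 40.7% (36.7 to 44.8) in WT at 24 hpf, and 45.8% (43.0 to 48.8) in KDM5A-KO and 58.1% (54.7 to 61.5) in WT at 48 hpf. srsf10a itself had 24.0 FPKM in KDM5A-KO and 17.7 FPKM in WT at 24 hpf, and 19.1 FPKM in KDM5A-KO and 19.8 FPKM in WT at 48 hpf, so at 48 hpf the gap lay with the b copy.

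In the hnrnpa1 pair the a copy held 55.7% in KDM5A-KO and 52.1% in WT at 24 hpf, and 59.2% in KDM5A-KO and 65.8% in WT at 48 hpf. Here the a copy was lower in KDM5A-KO at 48 hpf and the b copy level. The prpf4b pair had 31.4% in KDM5A-KO and 32.5% in WT at 24 hpf, and 37.9% (35.6 to 40.2) in KDM5A-KO and 44.1% (42.0 to 46.3) in WT at 48 hpf, with prpf4bb (ENSDARG00000040310) between 19.7 and 24.6 FPKM in all 4 libraries. In the srsf5 pair the a share was 75.6% in KDM5A-KO and 67.9% in WT at 48 hpf, and in srsf6 it was 66.7% in KDM5A-KO and 57.4% in WT. The srsf1 pair had 79.9% in KDM5A-KO and 75.5% in WT at 48 hpf, and the u2af2 pair 39.5% in KDM5A-KO and 46.0% in WT. In these 6 pairs and the srsf10 pair, 7 of the 12, the KDM5A-KO and WT intervals did not overlap at 48 hpf. By contrast the hnrnpu and hnrnpab pairs varied by 1.92 and 2.64 percentage points over the 4 libraries. Duplicated pairs outside the splicing genes were not examined. Among single genes of the whole table, 28.6% were higher and 33% lower in KDM5A-KO at 48 hpf by the counting interval. Nothing particular to splicing duplicates is therefore read from the 7 of 12.

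**Figure D4:**
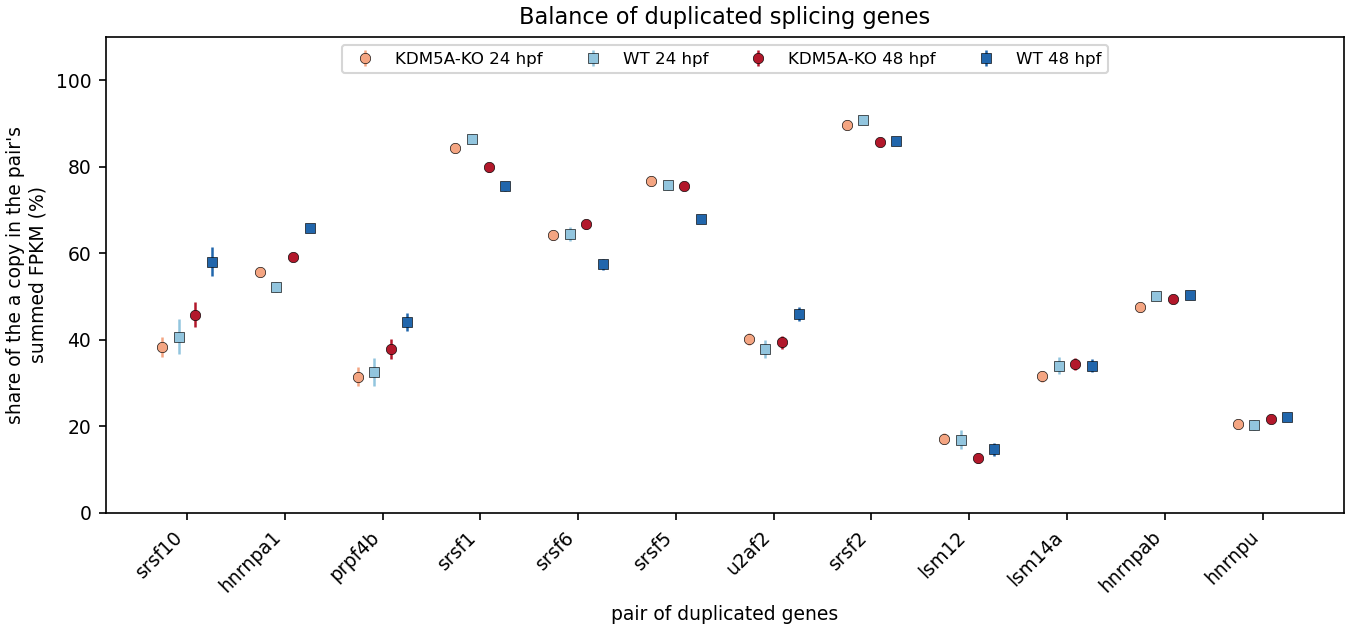
Share of the a copy in the summed FPKM of each of 12 duplicated pairs (%), in the 4 libraries, with exact 95% counting intervals. srsf10, hnrnpa1 and prpf4b differ most, with a shares at 48 hpf of 45.8%, 59.2% and 37.9% in KDM5A-KO and 58.1%, 65.8% and 44.1% in WT.

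Other genes of RNA splicing, taken from lists that do not overlap the 86 genes, were set beside them at 48 hpf. These lists were chosen with earlier results of these data known and come from the same libraries, so they give no separate support. Other core spliceosome genes, among them helicases and snRNP proteins, had a median of 0.10, with 35 of 55 above 0. By the counting interval 25 of the 55 were higher and 12 lower, beside 28.6% and 33% of all genes. The U5 helicase snrnp200 had 26.2 FPKM in KDM5A-KO and 19.8 FPKM in WT at 48 hpf, whereas txnl4a of the same list had 23.2 FPKM in KDM5A-KO and 32.2 FPKM in WT. The exon junction and export genes had a median of 0.15, with 16 of 21 above 0. The list called Sm assembly holds genes of the SMN complex and others, such as coil, snupn and tgs1. Its median was 0.44 at 24 hpf (0.17 rescaled). All genes had 0.20 there (-0.02 rescaled). At 48 hpf the Sm assembly genes were above 0 in 12 of 12 cases, with a median of 0.42. Among them prmt5, which methylates Sm proteins, had 51.1 FPKM in KDM5A-KO and 39.2 FPKM in WT at 24 hpf, and 37.8 FPKM in KDM5A-KO and 20.2 FPKM in WT at 48 hpf, a log2 FPKM ratio of 0.91 (0.78 to 1.03) at 48 hpf.

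The SR kinases and Tra2 genes, partners of the SR proteins, were below 0 in 8 of 10 cases at 48 hpf, with a median of -0.32. The kinase gene srpk2 had 9.28 FPKM in KDM5A-KO and 17.8 FPKM in WT at 48 hpf. The tissue-biased regulators had a median of -0.03 at 24 hpf (-0.29 rescaled), beside 0.20 for all genes (-0.02 rescaled). At 48 hpf the median of these regulators was -0.30 (-0.31 rescaled), with 22 of 30 below 0. At least 2-fold lower there were 6, beside 4.65% of all genes: celf3a, celf4, celf5a, elavl4, khdrbs2 and rbfox1. These 6 were named because of their values. In mammals their relatives are known from neurons, though not in each case from neurons alone. elavl4 had 34.7 FPKM in KDM5A-KO and 77.9 FPKM in WT at 48 hpf, and rbfox1 had 16.0 FPKM in KDM5A-KO and 39.6 FPKM in WT. By contrast ptbp1b, whose mammalian relative holds back neuronal exons in cells that are not neurons, had 30.4 FPKM in KDM5A-KO and 25.2 FPKM in WT at 48 hpf.

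**Figure D5:**
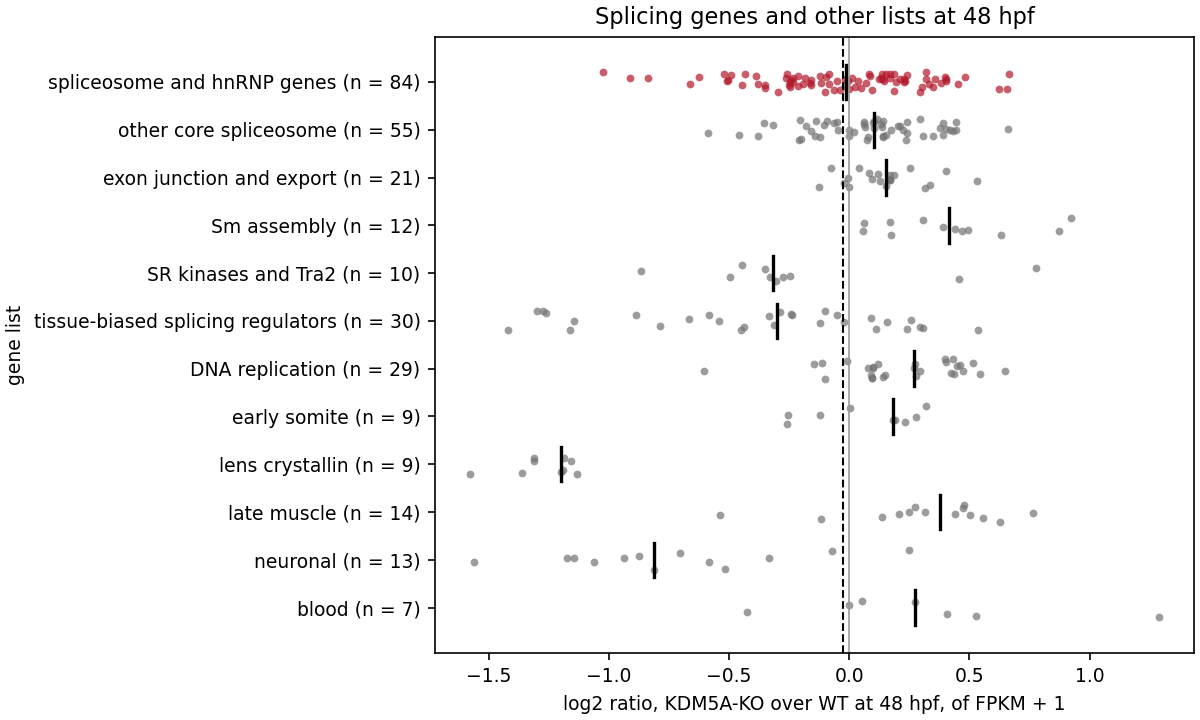
Log2 ratio of KDM5A-KO over WT at 48 hpf (FPKM + 1) for the 84 splicing genes (red), 5 other splicing lists and 6 lists of stage and tissue markers, one point per gene, with list medians as black bars and the median of all genes (-0.03) dashed. Sm assembly (0.42) and DNA replication (0.27) lie above 0 and the neuronal (-0.81) and lens crystallin (-1.20) markers below.

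Markers of proliferation and of neurons also differed between the genotypes at 48 hpf. The DNA replication genes had a median of 0.27, with 24 of 29 above 0 and a summed level of 977 FPKM in KDM5A-KO and 862 FPKM in WT. The neuronal markers had a median of -0.81, with 12 of 13 below 0 and a summed level of 469 FPKM in KDM5A-KO and 819 FPKM in WT. This list shares elavl3 and elavl4 with the tissue-biased regulators, so the 2 lists are not independent. Lens crystallin genes were below 0 in 9 of 9 cases (median -1.20), and cryaba, listed at 0 in every library but WT at 24 hpf, and crygm3 were left out of that count because their means were under 1 FPKM. The late muscle median was 0.38, with 12 of 14 above 0. The blood median was 0.27, with 5 of 7 above 0 and a range of -0.42 to 1.29. The blood genes summed to 1782 FPKM in KDM5A-KO and 1704 FPKM in WT. The early somite median was 0.18, at median levels of only 0.45 FPKM in KDM5A-KO and 0.65 FPKM in WT. With age, replication genes had a median of -0.86 in KDM5A-KO and -1.24 in WT, and neuronal markers 1.31 in KDM5A-KO and 2.09 in WT. At 24 hpf the medians of KDM5A-KO over WT were -0.12 for replication and 0.14 for neuronal markers, beside 0.20 for all genes. After rescaling they were -0.38 for replication and -0.04 for neuronal markers. Late muscle had -0.34 at 24 hpf (-0.61 rescaled) and lens crystallins -0.86 (-1.10 rescaled). Early somite genes had 0.54 (0.34 rescaled) and blood genes 0.54 (0.28 rescaled). No replication or neuronal marker was listed at 0. The part of these markers, of embryonic stage and of tissue make-up in the levels of the splicing genes was not tested.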

How the data were processed

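RNA-seq libraries of whole zebrafish embryos were described, 1 per genotype and age. Per the labels the libraries used a SMARTER mRNA kit, whereas the study's methods name NEBNext Ultra. The submitters' processing notes list FastQC 0.11.5, HISAT2 2.1.0, StringTie 1.3.3b and DESeq 1.28.0. They also list mm10, a mouse build, although the gene identifiers are of zebrafish, so no coordinates are given. The deposited table gave FPKM per gene, which the authors scaled by gene length and by the reads assigned to genes. Its columns C1, K1, C2 and K2 were read as WT (C) and KDM5A-KO (K) at 24 hpf (1) and 48 hpf (2), an inference that neither the table nor the labels spell out.

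Whole reads were recovered from FPKM and the smallest gene length that made them whole. This gave a number for 100% of genes, which is not the share of numbers shown to be exact. The recovered reads summed to 98.2% to 98.5% of the totals the values imply. Log2 ratios used FPKM + 1, over genes with a mean of at least 1 FPKM. Counting intervals were exact (Clopper-Pearson, 95%) and used the recovered reads. With 1 library per group no test was run and no p-value is given. PCR duplicates are not separated, so intervals cover counting error only. Genes named were KDM5A, the most abundant member of each role group, members past 2-fold between genotypes, the 3 highest and 3 lowest at each age and over time (averaged over both genotypes, mean of at least 5 FPKM) and both copies of the 3 most variable duplicate pairs. The other splicing genes named were chosen after their values were seen. The splicing genes, role groups and lists were chosen with earlier results of these data known. Alternatives were a pseudocount of 0.1, rescaling by the median of ratios, a mean of at least 5 FPKM, no filter, protein-coding genes only, totals without ribosomal RNA genes, and thresholds of 1.5-fold and 3-fold. The work used Python 3.11.15 with pandas 2.3.3, numpy 2.4.6 and scipy 1.17.1, and matplotlib 3.10.9 for plots, and the procedure was tested on simulated data.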

Additional observations from a re-analysis of the deposited data

Results flagged for a closer look

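For 11 of the 25 named genes and 3 of the 9 role groups the difference between KDM5A-KO and WT had opposite signs at 24 and 48 hpf. With 1 library per group this was not tested. How many of all genes had opposite signs was not counted. Of all 17416 genes, 12361 had a ratio above 0 at 24 hpf and 8280 at 48 hpf. Some of the named genes were chosen as extremes at these same times. Nothing particular to the named genes is therefore read from the count. With the 24 hpf log2 ratio subtracted from the 48 hpf one, the values were -0.37 for hnrnpa0l, -0.66 for hnrnpa1a, -0.92 for hnrnpa3 and -0.47 for srsf10a. They were -0.40 for srsf5a, -0.45 for lsm7, -0.52 for prpf4ba, -0.24 for prpf4bb and -0.28 for sf3b1. For lsm1 and snrpg the value was positive, 0.038 and 0.23, so the ratio was higher at 48 hpf. Of the role groups, LSm2 to LSm8 had -0.45, SR proteins -0.41 and hnRNPs -0.33. After rescaling by the median of ratios 5 of the 11 genes kept opposite signs, namely hnrnpa1a, lsm1, snrpg, srsf10a and srsf5a, as did the SR proteins but not the hnRNPs or LSm2 to LSm8. As deposited, both ratios exceeded counting error in 5 of the 11: hnrnpa0l, hnrnpa1a, lsm7, sf3b1 and srsf5a. Of these, hnrnpa1a and srsf5a had opposite signs after rescaling, and their rescaled log2 ratios at 24 hpf were close to 0, at 0.0096 and 0.047. For srsf10a the rescaled value at 24 hpf was 0.16, and at 48 hpf lsm1 had 0.0015 and snrpg 0.037.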

How the results depend on the processing

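No paired analysis was possible because no group holds more than 1 library. At 48 hpf the members' median lay between -0.023 and -0.0030 under all alternatives. With FPKM rescaled by the median of ratios the members' median was -0.032 in place of 0.23 at 24 hpf, -0.29 in place of -0.44 for age in KDM5A-KO and -0.38 in place of -0.28 for age in WT, and the median difference between genotypes in the change over time was 0.065 in place of -0.19. With totals without ribosomal RNA genes the medians were 0.057 at 24 hpf and -0.45 for age in WT, and that difference was -0.016. With those totals 5 members in place of 3 were past 2-fold with age in WT, beside 22.6% of all genes. With a pseudocount of 0.1 FPKM, 3 members in place of 1 were past 2-fold at 48 hpf, beside 13.8% of all genes. With age in KDM5A-KO that pseudocount gave 1 in place of 0, beside 21.3% of all genes, and rescaling also gave 1, beside 14.0%. At 1.5-fold the counts, out of 84 members, were 1 at 24 hpf, 8 at 48 hpf, 26 with age in KDM5A-KO and 15 with age in WT. In the same order 19.3%, 24.7%, 33.8% and 41.9% of all genes were past 1.5-fold. At 3-fold the counts were 0 at 48 hpf, beside 2.05% of all genes, and 1 with age in WT, beside 10.6%. Among the 25 named genes rescaling turned the sign of 11 at 24 hpf and 1 at 48 hpf, totals without ribosomal RNA genes 7 and 1, and the smaller pseudocount none. The depth of the WT library at 24 hpf limits genes of low level, such as lsm5 with 29 reads there.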
